A study of Homo sapiens with 6 samples.

Results

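The translation initiation factors were taken as every probe set with a single gene symbol that began with EIF1, EIF2, EIF3, EIF4, EIF5 or EIF6, without the EIF2AK kinases and without pseudogenes, of which 0 had to be removed. The rule found 152 of 49372 probe sets and 47 of 18132 genes. Of these, 45 genes and 128 probe sets lay above the floor for low signals and were tested. EIF4E1B, which encodes a relative of eIF4E, and EIF5AL1, which encodes a close copy of eIF5A, lay below it with mean log2 levels of 3.18 and 2.29. EIF1AY is included in the counts and its values are not given.

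The SATalpha arrays came from ARPE-19 cells transfected with a plasmid that carries GFP and satellite alpha, a repeat found at human centromeres. The GFP arrays came from ARPE-19 cells that received the plasmid with GFP and no satellite alpha. Both groups had 3 arrays, and all cells were grown in 6-well plates and received 2.5 µg of plasmid per well. ARPE-19 is an established line of human retinal pigment epithelium, and the cells of both groups were transfected, so the arrays hold no untransfected control. Nothing in the labels told whether wells of 1 plasmid were separate cultures, so the p-values measure the spread between these samples, which may be technical. In RNA from a whole well, fewer cells that make a transcript and less transcript per cell cannot be told apart.

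Initiation brings the small ribosomal subunit, the initiator tRNA and an mRNA together at a start codon. The cap-binding complex eIF4F (eIF4E, eIF4G and the helicase eIF4A) prepares the mRNA, eIF3 and eIF1A help to hold the small subunit ready, and eIF2 delivers the initiator tRNA and is recharged with GTP by eIF2B. Under stress, eIF2 kinases phosphorylate the alpha subunit of eIF2, which then blocks eIF2B and lowers protein synthesis in general while it favours a few transcripts such as ATF4.

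The 6 arrays had median log2 signals of 5.29 to 5.31. Over probe sets, arrays of the same plasmid correlated at 0.996 to 0.997 and arrays of different plasmids at 0.995 to 0.996. The first principal component held 56.6% of the variance and separated the groups. The second held 19.0% and placed SATalpha 2 at -6.88 and SATalpha 3 at 8.86. For GAPDH, the 3' control probe set exceeded the 5' one by 0.346 to 0.471 with SATalpha and 0.342 to 0.432 with GFP (two-sided exact permutation p = 1). For ACTB the gap was 1.87 to 2.11 with SATalpha and 1.99 to 2.11 with GFP (exact permutation p = 0.6, where 0.1 is the smallest value possible). Of 11 pigment epithelium markers, 7 lay above the floor. The defining markers RPE65, RLBP1, BEST1 and TYRP1 lay below it, while KRT8, KRT18, MITF and OTX2 were measured. The mean level of the 11 markers was 7.02 to 7.06 with SATalpha and 7.10 to 7.16 with GFP, and KRT8 and KRT18 fell by 0.13 and 0.21. Of 7 mesenchymal markers 4 were above the floor. The mean level of all 7 was 7.01 to 7.19 with SATalpha and 7.19 to 7.24 with GFP, and ACTA2 fell by 0.52. Of the 4 neuron or photoreceptor markers on the array, TUBB3 and PDE6B were above the floor and fell by 0.37 and 0.41 (limma adjusted p from 1.40e-05 to 0.0266 over ACTA2, TUBB3, PDE6B, KRT8 and KRT18). The mean level of all 4 was 6.15 to 6.21 with SATalpha and 6.35 to 6.40 with GFP. Of the 4 leukocyte markers on the array 1 lay above the floor, CD68 (8.22), while PTPRC (2.37) was among those below it. Of the 3 endothelial markers 2 lay above the floor, PECAM1 (5.34) and VWF (5.35), while CDH5 (3.34) lay below it. The mean of the 4 leukocyte markers was 4.70 to 4.72 with SATalpha and 4.73 to 4.88 with GFP, and that of the 3 endothelial markers was 4.61 to 4.81 with SATalpha and 4.58 to 4.71 with GFP. The part of these marker differences in the values that follow was not tested.

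Initiation factor genes moved by small amounts and in both directions. Of the 45 tested genes 11 passed a limma adjusted p of 0.05, namely 5 that were higher and 6 that were lower with SATalpha. That is 24.4% of the initiation factor genes, and 20.8% of all 10879 tested genes passed the same threshold (7.72% higher and 13% lower). When each gene was given the mean of all its probe sets, also those below the floor, 10 initiation factor genes passed, 7 higher and 3 lower. The higher genes were EIF4E, EIF3B, EIF3J, EIF5 and EIF2S3, and the lower ones were EIF2B5, EIF2B3, EIF2D, EIF4E2, EIF4A3 and EIF2S2. The median log2 difference, SATalpha minus GFP, was -0.01 over the initiation factor genes and -0.02 over all tested genes. The median size regardless of sign was 0.08 over the initiation factors and 0.09 over all tested genes. EIF2B5 was the 1 gene of 45 (2.22%) that differed by at least 1.2-fold, a size reached by 9.82% of all tested genes. The 3 SATalpha values lay wholly above or wholly below the 3 GFP values in 20 of 45 genes (9 higher, 11 lower), and this held for 37.6% of all tested genes. EIF4E, EIF3B and EIF2B5, which had the smallest adjusted p, passed whichever of the 6 arrays was left out. How many of all called genes do the same was not counted. Without GFP replicate 1 the count of called initiation factor genes was 4, and that of all called genes was 1216.

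**Figure D1:**
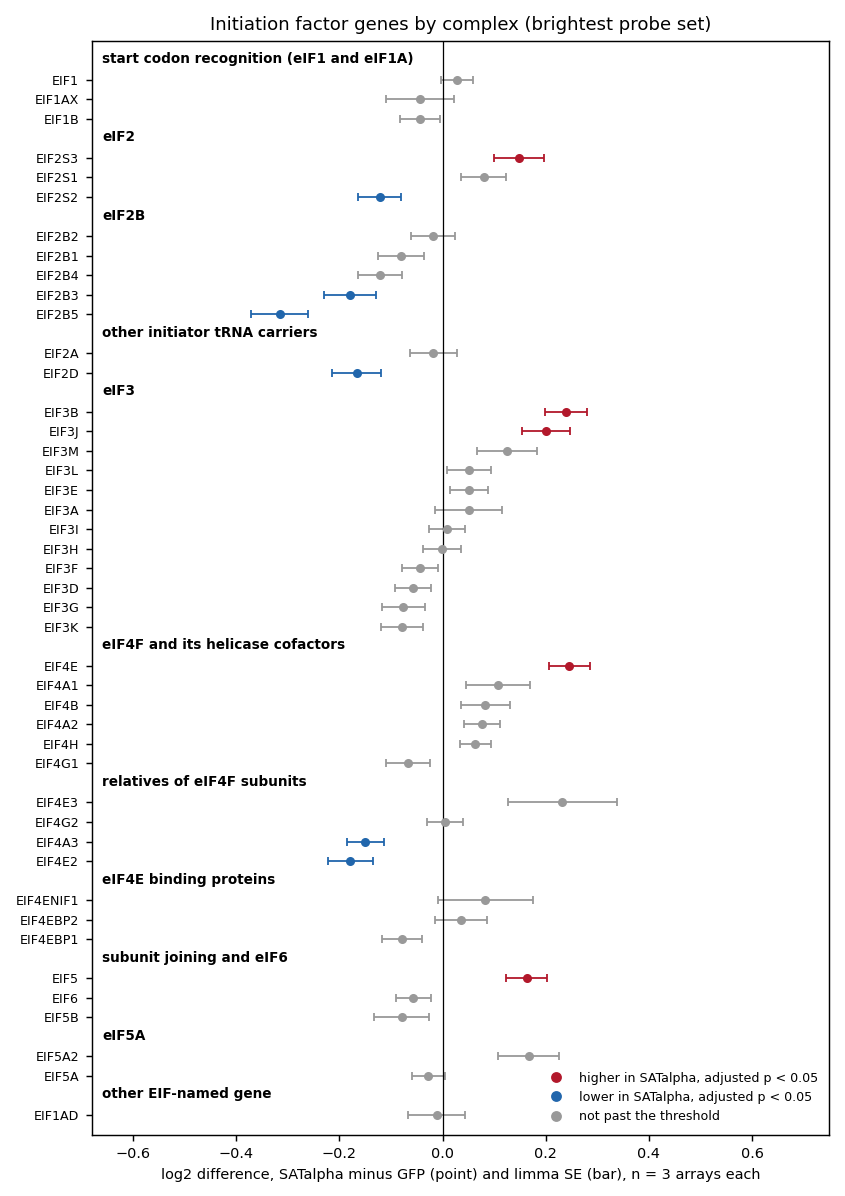
The plot shows the log2 difference, SATalpha minus GFP, of the tested initiation factor genes other than EIF1AY on the horizontal axis, with genes grouped by factor complex down the page. Points are limma estimates from 3 SATalpha and 3 GFP arrays, bars are limma's SE, and red and blue mark genes that passed as higher and lower. EIF4E (0.25) and EIF3B (0.24) lie farthest right and EIF2B5 (-0.32) lies farthest left.

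In the cap-binding complex eIF4F and its helicase cofactors, 5 of 6 tested genes had a positive difference, 1 passed and it was higher, and the median difference was 0.08. Among all 10879 tested genes, 4605 had a positive difference and 7.72% passed as higher. EIF4E encodes the protein that binds the mRNA cap. Its log2 levels were 10.96, 10.91 and 11.05 in the SATalpha arrays and 10.73, 10.74 and 10.72 in the GFP arrays. All 3 SATalpha values were above all 3 GFP values. The means were 10.97 ± 0.07 with SATalpha and 10.73 ± 0.01 with GFP (SD, n = 3 each), so EIF4E was 0.25 higher (log2, SE 0.04, limma adjusted p = 0.000796), or 1.19-fold. The other EIF4E probe sets above the floor differed by 0.17, 0.08 and -0.02, and 1 of them also passed (0.17, adjusted p = 0.0402 over probe sets). With the mean of all 7 EIF4E probe sets in place of the brightest, the difference was 0.06 (limma adjusted p = 0.431). Of these 7, only 4 lay above the floor. All 4 tested EIF4E probe sets are of the _s_at and _x_at kinds, which can match several transcripts, so EIF4E could not be tested without these kinds.

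EIF4G1, the scaffold of the complex, averaged 9.33 ± 0.04 with SATalpha and 9.40 ± 0.03 with GFP (SD, n = 3 each), a difference of -0.07 with a 95% interval from -0.16 to 0.03 (limma adjusted p = 0.298). The helicase genes EIF4A1 and EIF4A2 differed by 0.11 (adjusted p = 0.243) and 0.08 (adjusted p = 0.143). The EIF4A1 value came from a single-symbol probe set with a mean of 7.71. Much brighter probe sets, shared with the readthrough SENP3-EIF4A1 (means 13.26, 13.26 and 12.47), differed by 0.05, 0.05 and 0.02 and did not pass. EIF4B and EIF4H, whose products stimulate the helicase, differed by 0.08 (adjusted p = 0.242) and 0.06 (adjusted p = 0.157). As the mean of its probe sets, EIF4H rose by 0.23 (adjusted p = 0.00408). None of these 5 genes passed through its brightest probe set, and 3 of them had another probe set that did. A second EIF4H probe set stood at 8.89, 8.76 and 8.55 in the SATalpha arrays and at 8.25, 8.32 and 8.42 in the GFP arrays. These values did not overlap, and the probe set rose by 0.40 (SE 0.08, limma adjusted p = 0.00289 over 25421 probe sets). A second EIF4A2 probe set rose by 0.27 (adjusted p = 0.00545) and a second EIF4B probe set by 0.22 (adjusted p = 0.00346). These 3 probe sets passed whichever array was left out. Over the complex, 17 of 20 tested probe sets had a positive difference, 5 were called higher and 0 lower. Among all 25421 tested probe sets, 12184 had a positive difference, 8.98% were called higher and 9.17% lower.

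The EIF4E promoter is shown because the E-box, a sequence bound by MYC and other basic helix-loop-helix factors, is a known element there. The promoters of 3 further genes stand beside it for comparison, namely that of EIF5A2, which holds the probe set with the largest increase, and those of EIF2B3 and EIF2B5, the called subunits of eIF2B. Each line gives the 250 bases before the RefSeq transcription start in GRCh38.p14, 5' to 3' on the strand of the gene, with every CACGTG in capitals.
EIF4E: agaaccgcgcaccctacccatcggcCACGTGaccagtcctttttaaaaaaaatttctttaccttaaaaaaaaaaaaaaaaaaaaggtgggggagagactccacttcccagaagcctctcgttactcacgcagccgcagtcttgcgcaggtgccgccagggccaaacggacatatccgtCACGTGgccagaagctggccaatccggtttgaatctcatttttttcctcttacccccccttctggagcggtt
EIF5A2: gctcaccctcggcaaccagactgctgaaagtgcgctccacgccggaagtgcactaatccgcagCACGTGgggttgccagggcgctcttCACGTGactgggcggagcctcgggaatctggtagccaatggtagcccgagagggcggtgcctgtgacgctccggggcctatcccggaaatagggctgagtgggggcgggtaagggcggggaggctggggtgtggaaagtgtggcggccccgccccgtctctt
EIF2B3: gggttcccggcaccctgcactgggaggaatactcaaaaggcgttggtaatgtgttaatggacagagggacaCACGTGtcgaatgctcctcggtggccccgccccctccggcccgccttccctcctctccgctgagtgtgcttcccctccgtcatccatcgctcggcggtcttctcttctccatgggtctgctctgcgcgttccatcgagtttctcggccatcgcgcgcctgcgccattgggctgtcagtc
EIF2B5: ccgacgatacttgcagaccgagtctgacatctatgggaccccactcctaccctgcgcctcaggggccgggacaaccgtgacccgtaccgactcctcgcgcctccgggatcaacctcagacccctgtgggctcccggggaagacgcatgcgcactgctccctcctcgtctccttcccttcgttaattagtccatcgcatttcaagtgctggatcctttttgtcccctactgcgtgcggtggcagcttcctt
The windows lie at chr4:98929134-98929383 (minus strand) for EIF4E, chr3:170908638-170908887 (minus strand) for EIF5A2, chr1:44986596-44986845 (minus strand) for EIF2B3 and chr3:184135108-184135357 (plus strand) for EIF2B5. EIF4E holds 2 E-boxes, which begin at positions -225 and -72 relative to the start, and EIF5A2 holds 2, which begin at -187 and -162. EIF2B3 holds 1, which begins at -179, and EIF2B5 holds 0.

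RefSeq promoters were matched by symbol for 39 of the 46 initiation factor genes looked up, which gave 53 promoters, since 8 genes have several starts. The letters CACGTG, searched on both strands, stood in 10 of the 53 (18.9%), in 6.34% of all 35116 promoters and in 8.37% of the 13228 promoters of tested genes. The 10 belonged to EIF1B, EIF2B3, EIF3F, EIF3K, EIF4A3, EIF4B, EIF4E, EIF4G1, EIF4H and EIF5A2, a group with called increases (EIF4E), called decreases (EIF2B3, EIF4A3) and genes that did not pass. The cyclic AMP response element TGACGTCA, which shares the letters ACGT with the E-box, stood in 0 of the 53 initiation factor promoters, in 1.65% of all promoters and in 2.56% of those of tested genes. The C/EBP-ATF type element TGATGNAA stood in 1 of the 53 (1.89%), that of EIF4E3, in 3.14% of all promoters and in 1.69% of those of tested genes. These matches describe letters in a window and say nothing of whether a factor was bound.

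Among the relatives of eIF4F subunits, 2 of 4 tested genes passed and both were lower. Of all tested genes 20.8% passed, 13% as lower. EIF4E2 encodes 4EHP, which binds the cap and represses translation. Its levels were 9.26, 9.24 and 9.25 in the SATalpha arrays and 9.40, 9.40 and 9.49 in the GFP arrays. The groups did not overlap, and EIF4E2 fell by 0.18 (SE 0.04, limma adjusted p = 0.0105). Its other tested probe set differed by -0.15, and the call was lost without GFP replicate 3. The mean of all 4 EIF4E2 probe sets, of which only 2 lay above the floor, differed by -0.02 (adjusted p = 0.812). EIF4A3, the helicase of the exon junction complex, stood at 10.12, 10.11 and 10.14 in the SATalpha arrays and at 10.29, 10.27 and 10.26 in the GFP arrays. It was lower in all 3 SATalpha arrays and fell by 0.15 (SE 0.04, limma adjusted p = 0.0105), a call that was lost without GFP replicate 1. EIF4E3, another cap-binding relative, differed by 0.23 (SE 0.10, adjusted p = 0.135). Its other tested probe set differed by -0.10. The mean of all 5 EIF4E3 probe sets, of which only 2 lay above the floor, differed by 0.03 (adjusted p = 0.862). EIF4G2, a scaffold that lacks the eIF4E binding site, differed by 0.0047 (adjusted p = 0.946).

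Of the genes for proteins that bind eIF4E, 0 of 3 tested passed limma's adjusted threshold, and 0 had an unadjusted p under 0.05. Among all 10879 tested genes, 20.8% passed and 3692 had an unadjusted p under 0.05. EIF4EBP1 encodes the 4E-BP1 repressor that mTOR switches off by phosphorylation. It averaged 10.13 ± 0.04 with SATalpha and 10.21 ± 0.03 with GFP (SD, n = 3 each), a difference of -0.08 with a 95% interval from -0.16 to 0.00 (limma adjusted p = 0.168). EIF4EBP2 differed by 0.04 (adjusted p = 0.669), although 1 of its 4 tested probe sets fell by 0.22 (limma adjusted p = 0.0295 over probe sets), a call that held in 1 of the 6 fits that each left out an array. EIF4ENIF1, which carries eIF4E into the nucleus, differed by 0.08 (adjusted p = 0.565).

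Of the factors for start codon recognition, eIF1 and eIF1A, 0 of 4 tested genes and 0 of 9 tested probe sets passed in limma, with 0 genes and 2 probe sets at an unadjusted p under 0.05. Over the whole series, 20.8% of 10879 tested genes and 18.2% of 25421 tested probe sets passed. An unadjusted p under 0.05 was found for 3692 of those genes and 8110 of those probe sets. EIF1, which keeps the scanning complex open until the start codon is met, averaged 12.81 ± 0.04 with SATalpha and 12.78 ± 0.01 with GFP (SD, n = 3 each). Its difference was 0.03, with a 95% interval from -0.04 to 0.09 (limma adjusted p = 0.560). EIF1B differed by -0.04 (adjusted p = 0.473) and EIF1AX by -0.04 (adjusted p = 0.694). EIF1AD, which shares the name and encodes an eIF1A-like protein, differed by -0.01 (adjusted p = 0.915).

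The 3 subunits of eIF2 did not move together at the level of genes. EIF2S3 encodes the gamma subunit, which binds GTP and the initiator tRNA. Its levels were 10.07, 10.08 and 10.01 in the SATalpha arrays and 9.81, 9.99 and 9.91 in the GFP arrays. The groups did not overlap, and EIF2S3 rose by 0.15 (SE 0.05, limma adjusted p = 0.0407). All 4 EIF2S3 probe sets had positive differences of 0.08 to 0.39, and 2 passed, neither of them the brightest (adjusted p = 0.0515 over probe sets). The one that rose most stood at 8.95, 8.85 and 8.90 in the SATalpha arrays and at 8.49, 8.52 and 8.52 in the GFP arrays, and it rose by 0.39 (SE 0.05, limma adjusted p = 0.000164 over probe sets). Both passing EIF2S3 probe sets kept their call whichever array was left out, while the call on the gene, made from the brightest probe set, was lost without SATalpha replicate 1 or 2 and without GFP replicate 1 or 3. EIF2S2, the beta subunit, stood at 10.41, 10.36 and 10.43 in the SATalpha arrays and at 10.59, 10.51 and 10.47 in the GFP arrays. It was lower in all 3 SATalpha arrays and fell by 0.12 (SE 0.04, limma adjusted p = 0.0498). This is close to the threshold (adjusted p = 0.0607 over probe sets). The other tested EIF2S2 probe set, alone once the _s_at and _x_at kinds were left out, differed by -0.05 (adjusted p = 0.695). The mean of all 3 EIF2S2 probe sets, of which 2 lay above the floor, differed by -0.06 (adjusted p = 0.549). The call was also lost without SATalpha replicate 1 or 2 and without GFP replicate 1 or 2. EIF2S1, which encodes the alpha subunit that the stress kinases phosphorylate, averaged 10.37 ± 0.05 with SATalpha and 10.29 ± 0.06 with GFP (SD, n = 3 each), a difference of 0.08 with a 95% interval from -0.01 to 0.17 (limma adjusted p = 0.214).

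The 5 subunit genes of eIF2B, the exchange factor for eIF2, all had negative differences, with a median of -0.12, and 2 of them passed. Among all 10879 tested genes, 6274 had a negative difference and 13% passed as lower. All 9 tested probe sets of eIF2B were negative, and these include the 5 that gave the gene values. The 2 called lower were those of the 2 called genes. Among all 25421 tested probe sets, 13237 had a negative difference and 9.17% were called lower. EIF2B5 encodes the catalytic epsilon subunit. Its levels were 8.28, 8.22 and 8.35 in the SATalpha arrays and 8.58, 8.68 and 8.54 in the GFP arrays. Every SATalpha value was below every GFP value. The means were 8.29 ± 0.06 with SATalpha and 8.60 ± 0.07 with GFP (SD, n = 3 each), a difference of -0.32 (SE 0.05, limma adjusted p = 0.00123), or 0.804-fold. EIF2B5 has 1 probe set, so each array measured it with that probe set alone. EIF2B3, the gamma subunit that partners epsilon, stood at 8.55, 8.52 and 8.53 in the SATalpha arrays and at 8.80, 8.66 and 8.69 in the GFP arrays. These groups did not overlap either, and EIF2B3 fell by 0.18 (SE 0.05, limma adjusted p = 0.0217). It also has 1 probe set, and its call was lost without SATalpha replicate 1 or GFP replicate 1. The regulatory subunit genes did not pass. EIF2B4 (delta) differed by -0.12 (adjusted p = 0.0612) with groups that did not overlap, EIF2B1 (alpha) by -0.08 (adjusted p = 0.225) and EIF2B2 (beta) by -0.02 (adjusted p = 0.807).

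**Figure D2:**
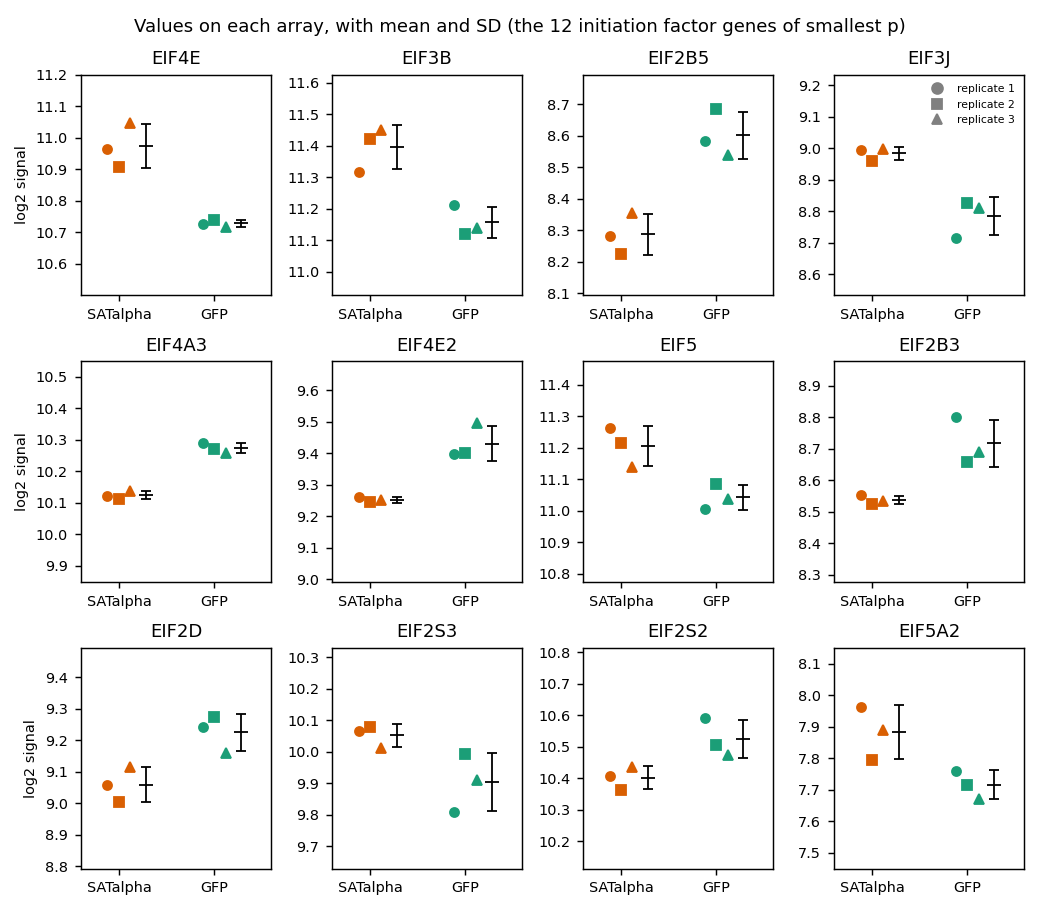
The plot gives the log2 level in each of the 6 arrays for the initiation factor genes with the 12 smallest p-values, 1 panel per gene, with SATalpha left of GFP. Points are single arrays, with a marker for each replicate number, the bars beside them are the mean and SD, and every panel spans the same log2 range. The 3 points of a group stand apart from the 3 of the other group in all 12 panels, which include EIF5A2 (adjusted p = 0.0587). The panels were chosen by small p, which favours such a gap, and 2204 of all 2259 called genes show it too.

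EIF2A and EIF2D encode proteins that can bring tRNA to the ribosome without eIF2. EIF2D stood at 9.06, 9.00 and 9.11 in the SATalpha arrays and at 9.24, 9.27 and 9.16 in the GFP arrays. The groups did not overlap, and EIF2D fell by 0.17 (SE 0.05, limma adjusted p = 0.0254). With the mean of its 2 probe sets, of which only 1 lay above the floor, the difference was -0.09 (adjusted p = 0.402). The EIF2D call was also lost without SATalpha replicate 1 or 2 and without GFP replicate 1 or 2. EIF2A differed by -0.02 (adjusted p = 0.831).

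In eIF3, the largest factor, 2 of 12 tested subunit genes passed, and both were higher. Of all tested genes 20.8% passed, 7.72% as higher. EIF3B encodes a core subunit that serves as a scaffold. Its levels were 11.32, 11.42 and 11.45 in the SATalpha arrays and 11.21, 11.12 and 11.14 in the GFP arrays. The groups did not overlap. The means were 11.40 ± 0.07 with SATalpha and 11.16 ± 0.05 with GFP (SD, n = 3 each), a difference of 0.24 (SE 0.04, limma adjusted p = 0.00118), or 1.18-fold. The other 6 tested EIF3B probe sets differed by -0.03 to 0.06 and none passed. The mean of all EIF3B probe sets differed by 0.05, and the call was lost when the _s_at and _x_at kinds were left out. EIF3J encodes a loosely bound subunit that acts near the decoding site. It stood at 9.00, 8.96 and 9.00 in the SATalpha arrays and at 8.72, 8.83 and 8.81 in the GFP arrays. It was higher in all 3 SATalpha arrays and rose by 0.20 (SE 0.05, limma adjusted p = 0.00823), its second probe set differed by 0.14, and the call was lost without GFP replicate 1.

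The other 10 tested eIF3 genes did not pass, and their differences ran from -0.08 (EIF3K) to 0.13 (EIF3M, adjusted p = 0.143). The large subunit gene EIF3A differed by 0.05 (adjusted p = 0.627), and the subunit gene nearest to 0 was EIF3H, with -0.00016 (SE 0.04). Single probe sets of EIF3K and EIF3L fell by 0.14 each (limma adjusted p = 0.0276 and 0.0330 over probe sets), and each call held in 1 of the 6 fits that left out an array. Over the 12 tested genes of the complex, 16 of 35 tested probe sets were positive and 19 negative, with 2 called in each direction. Among all 25421 tested probe sets, 8.98% were called higher and 9.17% lower. The core subunit gene EIF3C is not in these counts, as its probe sets above the floor are shared with EIF3CL. Of those, 1 fell by 0.21 and another rose by 0.23 (limma adjusted p = 0.00267 and 0.0258 over probe sets).

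EIF5 encodes the protein that makes eIF2 hydrolyse its GTP once the start codon is found. Its levels were 11.26, 11.22 and 11.14 in the SATalpha arrays and 11.01, 11.08 and 11.04 in the GFP arrays. The groups did not overlap, and EIF5 rose by 0.16 (SE 0.04, limma adjusted p = 0.0108). All 7 EIF5 probe sets had positive differences, from 0.05 to 0.31, and 4 of them passed. The probe set that rose most stood at 10.26, 10.33 and 10.16 in the SATalpha arrays and at 9.92, 9.94 and 9.96 in the GFP arrays, and rose by 0.31 (SE 0.05, limma adjusted p = 0.000652 over probe sets). The call on the brightest probe set was lost without SATalpha replicate 1 or GFP replicate 1, and the other 3 passing probe sets kept theirs whichever array was left out. EIF5B, the GTPase that joins the subunits, differed by -0.08 (adjusted p = 0.324), with probe sets from -0.17 to 0.22. EIF6, which keeps free large subunits apart from small ones, differed by -0.06 (adjusted p = 0.259).

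EIF5A and EIF5A2 encode the forms of eIF5A, the hypusine-bearing factor that helps the ribosome through difficult peptide bonds. EIF5A, the general form, averaged 11.67 ± 0.01 with SATalpha and 11.70 ± 0.03 with GFP (SD, n = 3 each), a difference of -0.03 with a 95% interval from -0.10 to 0.04 (limma adjusted p = 0.585). EIF5A2, the form of restricted expression, stood at 7.96, 7.80 and 7.89 in the SATalpha arrays and at 7.76, 7.72 and 7.67 in the GFP arrays. Its groups did not overlap, but the difference of 0.17 (SE 0.06, limma adjusted p = 0.0587) did not pass. A dimmer EIF5A2 probe set had the largest difference of all 128. It stood at 6.94, 6.95 and 7.08 in the SATalpha arrays and at 6.33, 6.45 and 6.38 in the GFP arrays. All SATalpha values were above all GFP values, and it rose by 0.60 (SE 0.07, limma adjusted p = 0.000113 over probe sets), a call kept whichever array was left out. Another EIF5A2 probe set rose by 0.31 (adjusted p = 0.0186), which was lost without SATalpha replicate 2, GFP replicate 1 or GFP replicate 3.

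**Figure D3:**
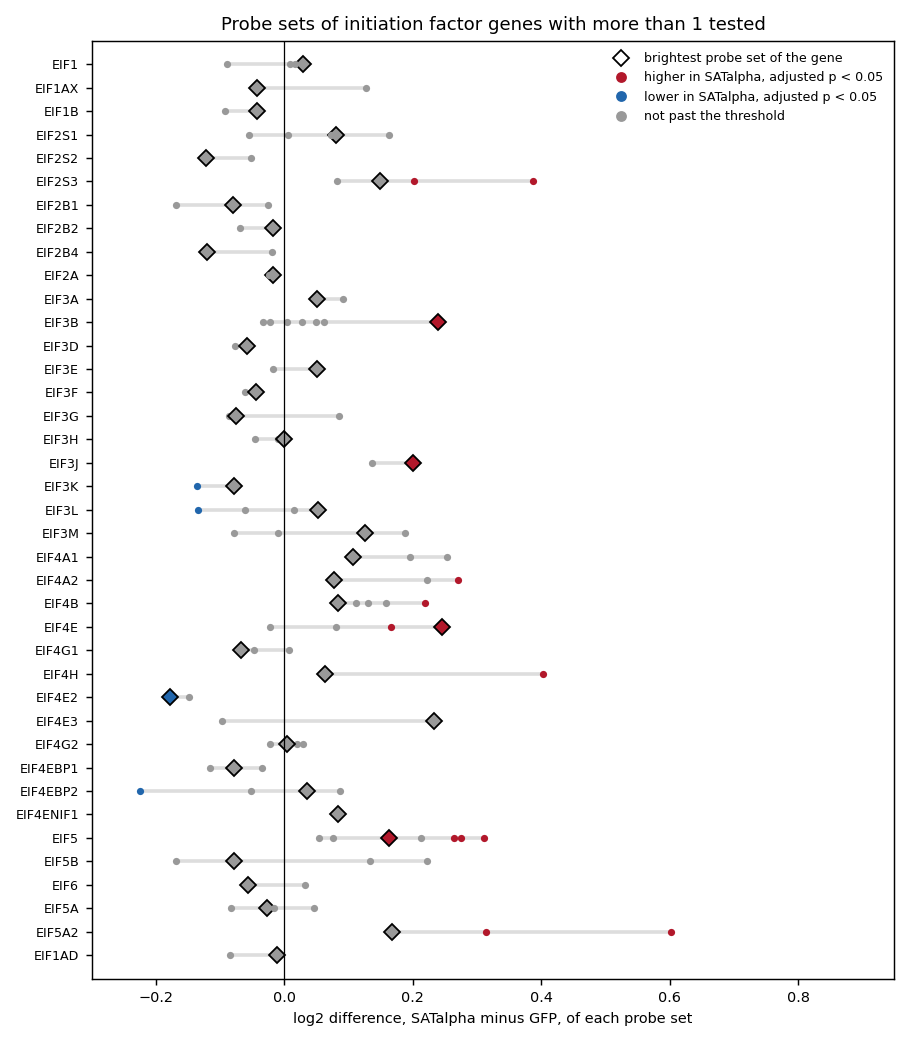
The plot shows the log2 difference, SATalpha minus GFP, of every tested probe set of the genes with more than 1, 1 row per gene in the order of the complexes. Points are probe sets, diamonds mark the brightest of a gene, and red and blue mark those that passed as higher and lower. The 7 EIF5 probe sets all lie right of 0 and those of EIF3B lie near 0 except 1 at 0.24.

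At the level of probe sets, 23 of 128 were called, which is 18.0%, with 15 higher and 8 lower. Of all tested probe sets 18.2% were called, 8.98% higher and 9.17% lower. Of the 23, 12 passed whichever array was left out, namely 11 higher and 1 lower, the EIF2B5 probe set. These were the 12 with the smallest adjusted p of the 23. How many of all called probe sets do the same was not counted. Whether probe sets of a gene changed unequally was tested over 12577 pairs, each a probe set against the brightest of its gene, and 2.46% of these were called. Of the 83 initiation factor pairs 1 was called. The dimmer EIF5A2 probe set changed by 0.43 more than the brightest one (SE 0.08, limma adjusted p = 0.0425). The call was lost whichever array was left out, with adjusted p from 0.0825 to 0.151.

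Other translation genes were taken from a list of 56, of which 55 were on the array and 51 were tested. Of these, 10 passed (19.6%), 6 higher and 4 lower, beside 20.8% of all tested genes. Among eIF2 kinases, phosphatase subunits and their targets, 5 of 10 passed, 4 higher and 1 lower. PPP1R15B, the constant guide of the phosphatase that restores eIF2 alpha, stood at 8.45, 8.47 and 8.38 in the SATalpha arrays and at 7.89, 7.89 and 7.74 in the GFP arrays. The groups lay far apart, and PPP1R15B rose by 0.59 (SE 0.06, limma adjusted p = 9.55e-06). Of its 4 probe sets 3 rose, by 0.47 to 0.69, while the fourth differed by 0.02 (adjusted p = 0.854 over probe sets), and without the _s_at and _x_at kinds the gene was no longer called (0.02, adjusted p = 0.857). PPP1R15A (GADD34), the stress-inducible guide, stood at 8.55, 8.50 and 8.51 in the SATalpha arrays and at 8.22, 8.18 and 8.16 in the GFP arrays. It was higher in all 3 SATalpha arrays and rose by 0.33 (SE 0.05, limma adjusted p = 0.000294). PPP1R15A has 1 probe set, of the _x_at kind, so it could not be tested without the _s_at and _x_at kinds.

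DDIT3 (CHOP), a transcription factor made under prolonged eIF2 phosphorylation, went the other way. It stood at 8.73, 8.62 and 8.71 in the SATalpha arrays and at 9.01, 8.95 and 9.04 in the GFP arrays. The groups did not overlap, DDIT3 fell by 0.32 (SE 0.05, limma adjusted p = 0.000488), and its second probe set fell by 0.33. Of the members named after their values were seen, ATF4 rose by 0.14 (adjusted p = 0.00449) and the RNA-activated kinase EIF2AK2 by 0.22 (adjusted p = 0.00273). Both DDIT3 probe sets are of the _s_at kind and the 1 ATF4 probe set is of the _x_at kind. Neither DDIT3 nor ATF4 could thus be tested without these kinds. The kinase EIF2AK3 differed by -0.19 and did not pass (adjusted p = 0.0554).

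Among other proteins of initiation, 4 of 10 passed, 1 higher and 3 lower, beside 20.8% of all tested genes. DDX3X, a helicase that helps unwind long leaders, stood at 10.87, 10.88 and 10.83 in the SATalpha arrays and at 10.55, 10.57 and 10.56 in the GFP arrays. The groups lay apart, and DDX3X rose by 0.30 (SE 0.04, limma adjusted p = 5.75e-05). All 8 of its tested probe sets rose, by 0.28 to 0.74. MCTS1, which works with DENR in recycling and re-initiation, fell by 0.22 (SE 0.06, limma adjusted p = 0.0249), BZW2, a mimic of eIF5, by 0.13 (adjusted p = 0.0262) and DHX29, a helicase for structured leaders, by 0.19 (adjusted p = 0.0361). The other 5 BZW2 probe sets had differences of -0.19 to 0.03, none of which passed, and BZW2 differed by -0.08 without the _s_at and _x_at kinds (adjusted p = 0.304) and by -0.09 as the mean of its probe sets (adjusted p = 0.199). The mean over all 4 MCTS1 probe sets, which takes in those below the floor, differed by -0.14 (adjusted p = 0.17). The call was lost without SATalpha replicate 1 or GFP replicate 1 for all 3 genes, and also without GFP replicate 3 for MCTS1, GFP replicate 2 or 3 for BZW2, and SATalpha replicate 2 or GFP replicate 2 for DHX29. PELO, which rescues stalled ribosomes, was the 1 of 6 tested termination and recycling genes that passed, and it rose by 0.20 (SE 0.04, limma adjusted p = 0.0037). Its second probe set differed by 0.03 and did not pass, and the mean of its probe sets differed by 0.12 (adjusted p = 0.0563).

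In the mTOR and MNK arms, whose kinases act on 4E-BP1 and on eIF4E itself, 0 of 13 tested genes passed limma's adjusted threshold, and 3 had an unadjusted p under 0.05. Beside these and the 2 classes that follow, 20.8% of all 10879 tested genes passed, and 3692 had an unadjusted p under 0.05. In this class MTOR differed by 0.12 (adjusted p = 0.347) and PDCD4, an inhibitor of eIF4A, by 0.17 (adjusted p = 0.0506). Of the poly(A) binding proteins and their partners, 0 of 4 passed in limma, and 2 had an unadjusted p under 0.05. Of the elongation genes, 0 of 8 passed in limma, with 2 at an unadjusted p under 0.05, and EEF1A1, which delivers aminoacyl-tRNA, differed by 0.06 (adjusted p = 0.170). MTOR, PDCD4 and EEF1A1 were named after their values were seen. Of the 10 called genes in this list, 7 passed whichever array was left out, namely those other than MCTS1, BZW2 and DHX29. These 7 had the smallest adjusted p of the 10. How many of all called genes do the same was not counted.

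**Figure D4:**
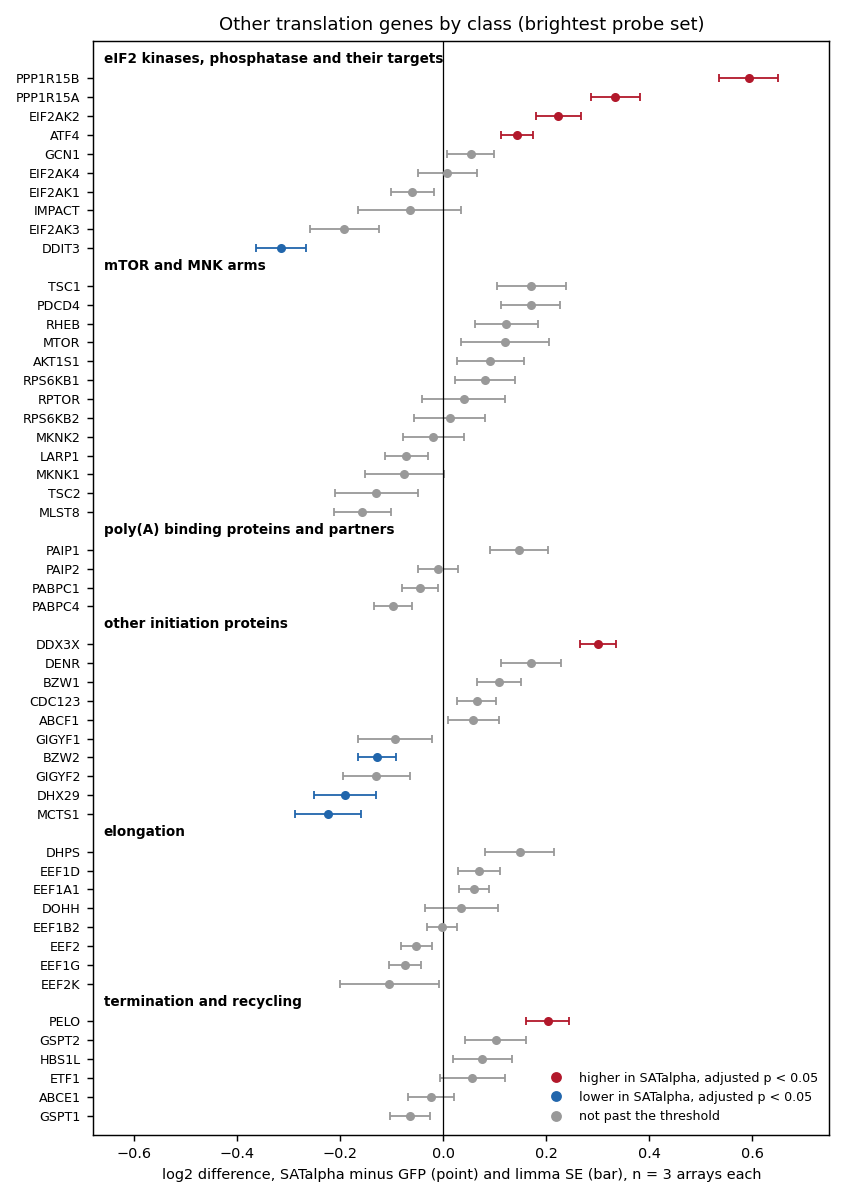
The plot shows the log2 difference, SATalpha minus GFP, of each tested gene of the list of other translation genes, grouped by class down the page. Points are limma estimates from 3 SATalpha and 3 GFP arrays, bars are limma's SE, and red and blue mark genes that passed as higher and lower. PPP1R15B (0.59) lies farthest right and DDIT3 (-0.32) farthest left.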

How the data were processed

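The deposited values were log2 signals of 6 Affymetrix arrays, 3 SATalpha and 3 GFP, in 1 table of the whole series, with 0 columns left unused. MAS5 and RMA, without versions, are listed in the submitters' processing notes, which do not say how each was used. The labels' protocols name total RNA and biotin-labelled targets for 3' arrays. The sources used here give no genome build, scan batch or origin of the replicates.

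GEO's platform annotation gave 1 symbol for 44988 probe sets and several for 1832, and it does not list 2473 (79 more are controls). For each of 18132 genes the brightest probe set was used (highest mean of the 6 arrays). A floor at a mean of 5.19 removed 40% of genes, the dimmest, which left 10879. Probe sets were tested with the same floor (25421), as were pairs of probe sets of a gene (12577). SATalpha minus GFP was fitted in R 4.3.3 with limma 3.58.1, whose eBayes step used a trend of variance on mean level. P-values were adjusted by Benjamini-Hochberg over all features of each fit, and the threshold was 0.05. The fits were tested on simulated data. Precision is limited by the number of arrays, and the median SE was 0.04 over initiation factor genes.

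Members, complexes and lists were chosen with earlier results of these data known. The rule for names took every called initiation factor gene, with array values for the 12 smallest p-values, then the largest and smallest difference of each complex, 9 core factors wherever tested, called probe sets whose gene did not pass, and up to 3 called genes of each other class. EIF2B1, EIF2B4, EIF1AX, EIF3A, EIF3M, EIF5B, EIF2AK3 and the marker genes were named besides, to complete a complex or list. The alternatives were other filters, median centring, quantile normalization, a gene's mean over its probe sets, no _s_at or _x_at probe sets, the replicate number as a block, no trend, array weights, an unmoderated test and each array left out. A gene's mean took in all its single-symbol probe sets, also those below the floor.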

Additional observations from a re-analysis of the deposited data

How the results depend on the processing

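No difference of a named gene that had passed changed sign in any alternative. The 11 called initiation factor genes became 6 with the replicate number as a replicate block, 5 with no mean-variance trend, 17 with array weights, 1 in the unmoderated test (EIF4A3, adjusted p = 0.0214) and 4 to 12 with 1 array left out. The 23 of 128 tested probe sets became 13 of the 69 that were tested without _s_at and _x_at probe sets. With all 128 tested, they became 13 with the replicate block, 15 with no trend and 40 with array weights. They became 6 in the unmoderated test and 13 to 28 with 1 array left out. The 1 called pair of 83 became 0 of 105 with no filter on low values and 0 of 69 with the lowest 60% of genes left out. It became 0 of 31 without _s_at and _x_at probe sets. With all 83 tested, it became 0 with the replicate block, in the unmoderated test and with any 1 array left out (0 to 0). It became 3 with array weights and 2 when the 23 pairs with identical values were left out, an alternative chosen after seeing the data, under which an EIF4E3 pair also passed (-0.33, limma adjusted p = 0.0478). The 10 other translation genes became 19 with array weights and 7 to 15 with 1 array left out. Over all 10879 tested genes, 2259 calls became 1300 with the replicate block, 1781 with no trend and 3328 with array weights. They became 717 in the unmoderated test and 1216 to 2520 with 1 array left out. The cause of these shifts was not tested. Arrays with the same replicate number deviated from their group means with correlations of -0.01, -0.25 and -0.27 over 25421 probe sets, so the numbers were not read as pairs. Of the 11 called initiation factor genes 0 passed in every alternative. EIF5A2 did not pass in the main comparison but passed with quantile normalization (adjusted p = 0.0359), with the mean of its probe sets (0.00845), with array weights (0.0121), with the lowest 60% left out (0.0486) and without SATalpha replicate 2 (0.0294). EIF4H likewise passed with the mean of its probe sets (0.23, 0.00408), without _s_at and _x_at probe sets (0.40, 0.00128) and with array weights (0.07, 0.0454), and EIF4EBP1 with array weights (-0.11, 0.0321). With the mean of all probe sets 7 initiation factor genes were higher and 3 lower, against 5 and 6 in the main comparison. Signal over background limits 24 of the 152 probe sets, which fell short of the floor and entered no test.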

Other observations

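Outside the single-symbol rule, 13 initiation factor probe sets above the floor carried several gene symbols, and none of them entered the counts. For EIF3C, a core subunit of eIF3, all 5 such probe sets are shared with its copy EIF3CL, so the copies cannot be told apart. One of them averaged 9.98 ± 0.04 with SATalpha and 10.20 ± 0.02 with GFP (SD, n = 3 each) and fell by 0.21 (limma adjusted p = 0.00267 over probe sets), while another averaged 9.68 ± 0.08 with SATalpha and 9.45 ± 0.14 with GFP and rose by 0.23 (adjusted p = 0.0258). The other 3 differed by -0.11, -0.06 and -0.04 and did not pass. Probe sets of the EIF3C pair were thus called in opposite directions, and which of them measures EIF3C was not tested.

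The 3 brightest initiation factor probe sets with several symbols belong to EIF4A1 and the readthrough SENP3-EIF4A1. They differed by 0.05, 0.05 and 0.02 and did not pass, and the single-symbol EIF4A1 probe set in the main comparison is much dimmer. A probe set shared by EIF5A and EIF5AL1 differed by 0.12 (adjusted p = 0.136), and that of EIF4EBP3 and ANKHD1-EIF4EBP3 differed by -0.11 and did not pass.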
